A study of Mus musculus with 4 samples.

Results

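Interferon-stimulated genes are the transcripts that cells switch on after interferon binds its receptor. A set of 35 such mouse genes was followed here by symbol through single-cell RNA libraries of 3 omental tumors and 1 ascites sample. Of the 35 genes, 33 carried the same symbol and identifier in all 4 libraries, out of 30406 genes shared by identifier, and Mx1 and Mx2 were not analysed here. The genes were listed by name and not by a rule on measured values, but earlier results of these data were known when they were chosen.

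The tumor libraries KPCA.A, KPCA.B and KPCA.C came from omental tumors of 3 cancer cell lines grown in C57BL6J mice 8 weeks old, each pooling 4 tumors, and the fourth library came from KPCA ascites of C57BL6J mice 9 weeks old. The labels name fallopian tube epithelial cells as the cell type of origin, do not say which of the lines gave the ascites, and describe no treatment of any group. The omentum is the fatty apron of the abdominal cavity on which ovarian-type cancers often settle, and ascites is the fluid that collects around it. Each group had 1 library, so no difference below could be tested against the spread between samples. Ranges in parentheses are 95% intervals for counting error alone. Where 3 tumor values follow each other, they are in the order KPCA.A, KPCA.B, KPCA.C.

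Interferons are secreted proteins made after a cell senses foreign or misplaced nucleic acid, or, for interferon gamma, by activated T cells and natural killer cells. Type I and type III interferons act through a complex with STAT2 and IRF9 that binds the interferon-stimulated response element, whereas interferon gamma acts on gamma-activated sequences and through IRF1. The induced proteins block viral entry, degrade or sequester RNA, sense further nucleic acid, or feed back on the pathway. In tumors these genes are read in malignant, immune and stromal cells alike, which is why they are described per cell class here.

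RefSeq promoter windows on build GRCm38.p6 were found for 26 of the 33 genes (not for Usp18, Oas2, Dhx58, Zbp1, Ifi27l2a, Rtp4 and Parp14), and the 250 bases before each start were searched on both strands for GAAANNGAAA, the core of the response element, and for TTCNNNGAA, the core of the gamma-activated sequence. The first was present in 12 of the 26 genes (46.2%) against 936 of 27025 genes in the whole table (3.46%). The second was present in 5 of the 26 (19.2%) against 2197 of the 27025 (8.13%). A match describes these letters in this window and is not a shown binding site. The 5 promoters below are of genes that separate the cell classes and lines described later and hold the first motif, and the promoter of Irf1 is added as one that holds only the second. Each runs over the 150 bases that end at the last base before the gene's start, written 5′ to 3′ on the gene's own strand, with the motif in capitals. A match on the other strand appears as its reverse complement.
Isg15, chr4:156200819-156200968, minus strand: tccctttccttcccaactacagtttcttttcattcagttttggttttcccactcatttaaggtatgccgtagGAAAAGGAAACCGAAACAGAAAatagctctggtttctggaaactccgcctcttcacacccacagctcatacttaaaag
Ifit3, chr19:34583379-34583528, plus strand: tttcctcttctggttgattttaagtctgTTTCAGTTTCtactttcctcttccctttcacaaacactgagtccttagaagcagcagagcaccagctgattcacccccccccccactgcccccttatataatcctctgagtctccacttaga
Rsad2, chr12:26456453-26456602, minus strand: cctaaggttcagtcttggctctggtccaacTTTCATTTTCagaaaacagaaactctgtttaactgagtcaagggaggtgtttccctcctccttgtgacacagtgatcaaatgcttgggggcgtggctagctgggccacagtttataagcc
Trim30a, chr7:104465194-104465343, minus strand: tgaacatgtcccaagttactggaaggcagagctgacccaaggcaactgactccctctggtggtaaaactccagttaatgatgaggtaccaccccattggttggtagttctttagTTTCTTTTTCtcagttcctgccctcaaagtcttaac
Bst2, chr8:71537473-71537622, minus strand: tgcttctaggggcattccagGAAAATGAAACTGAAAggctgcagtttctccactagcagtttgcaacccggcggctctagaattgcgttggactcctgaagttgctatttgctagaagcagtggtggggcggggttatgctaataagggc
Irf1, chr11:53769864-53770013, plus strand: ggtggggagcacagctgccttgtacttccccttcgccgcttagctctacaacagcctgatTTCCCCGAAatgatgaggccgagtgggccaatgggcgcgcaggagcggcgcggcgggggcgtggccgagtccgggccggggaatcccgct
In Isg15 the motif occurred 3 times in overlap, with 56 bases between the nearest copy and the start, and in Bst2 it occurred 2 times in overlap. Several of the genes also lie side by side. Ifit1, Ifit2, Ifit3 and Ifit3b lie on chromosome 19, Oas1a, Oas2, Oas3, Oasl1 and Oasl2 on chromosome 5, Gbp2 and Gbp3 on chromosome 3, and Rsad2 (chr12:26442746-26456452) lies next to Cmpk2 (chr12:26469204-26479837) on the opposite strand. Ifit3 and Ifit3b, and Oas1a and Trim30a with their own close relatives, are similar in sequence, so the counting may have split or dropped reads between copies and their levels are uncertain.

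After filtering, 2527, 2517 and 2996 tumor cells and 2848 ascites cells were used, with median depths of 7899, 7947, 14625 and 2077 UMIs (unique molecular identifiers, counted once per captured transcript). In KPCA.A 53.1% of the deposited barcodes exceeded the limit of 15% mitochondrial UMIs, against 22.5% in KPCA.B, 24.3% in KPCA.C and 5.42% for ascites. Cells were grouped without using the 33 genes and are called "-like" since their names rest on markers alone. A class was used in a library only where it had at least 50 cells, which gave 23 pairs of class and library. KPCA.B and KPCA.C shared 15 barcodes among the cells used, and every other pair of libraries shared 2 or fewer. The UMIs of all cells of a class in a library were added up and are given as CPM, the UMIs of a gene per 1000000 UMIs of the shared genes. Levels of different genes in CPM are not corrected for length, which 3′ tag counting does not require. The ascites library was read with another software version and gene annotation than the tumors.

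Across the classes, monocyte-like and neutrophil-like cells held the most interferon-stimulated RNA in summed UMIs. Ifitm3 and Bst2, abundant in most classes, were left out of sums, which Ifitm3 would otherwise largely set. Over the other 31 genes the sum was 7276 CPM (7061 to 7497) in 65 monocyte-like cells of KPCA.C and 4226 CPM (4047 to 4411) in 61 of KPCA.B. It was 4208 CPM in 256 neutrophil-like cells of KPCA.A, the only library with enough of them. There the median neutrophil-like cell held 1741 CPM, below the 1856 CPM of the median endothelial-like cell. The neutrophil-like cells were shallow, with a median of 1264.5 UMIs. They carried 10043.5 CPM of the 7 pancreatic acinar markers, whose part in the result was not tested. In the sums T cell-like cells followed, with 2832 CPM in KPCA.C and 1388 CPM in KPCA.B, then endothelial-like cells of KPCA.A with 2074 CPM. Macrophage-like cells of the tumors lay between 1449 and 1671 CPM. Tumor epithelial-like cells of KPCA.B, at 526 CPM, were the lowest class in the tumors, followed by plasma cell-like cells of the same tumor at 704 CPM, and macrophage-like cells of ascites, at 312 CPM, were the lowest of all. The low end depended on leaving out Ifitm3 and Bst2. With them, tumor epithelial-like cells of KPCA.B held 2314 CPM, and B cell-like cells of KPCA.B were the lowest tumor class at 858 CPM. Macrophage-like cells of ascites stayed lowest of all at 597 CPM.

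**Figure D1:**
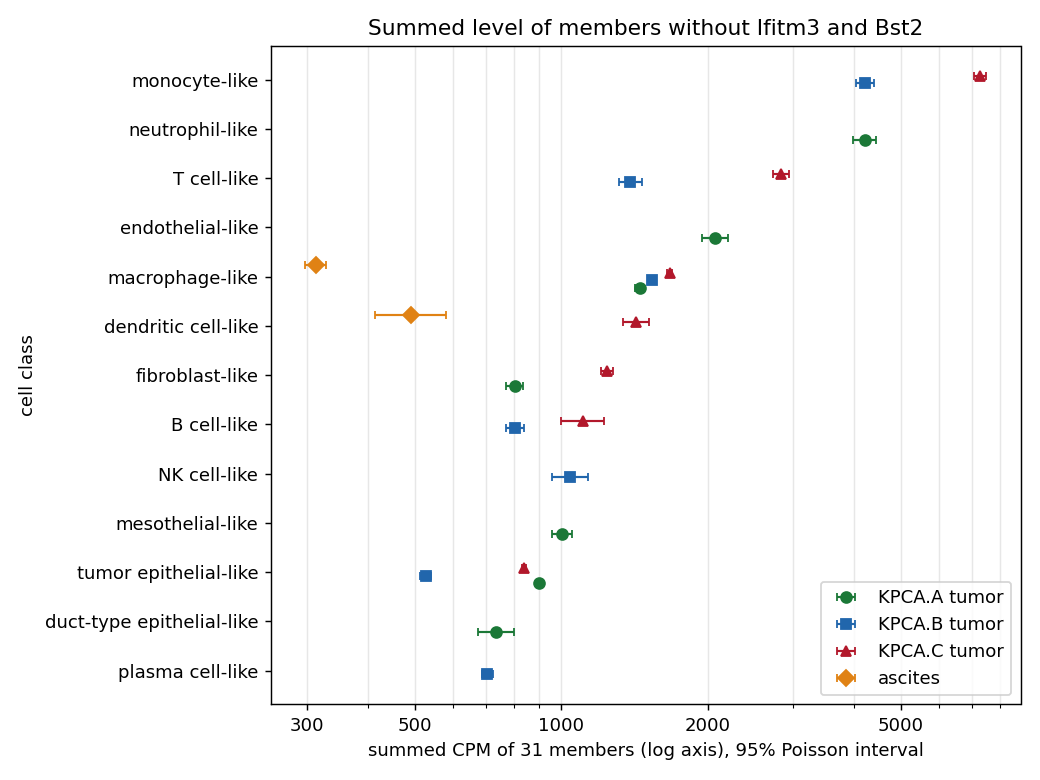
Summed level of 31 interferon-stimulated genes (all but Ifitm3 and Bst2) in CPM on a log axis, per cell class, with 1 point per library and bars for 95% Poisson intervals. Monocyte-like cells of KPCA.C are highest at 7276 CPM, and the 2 ascites classes, at 491 and 312 CPM, lie below every tumor class, the lowest of which is tumor epithelial-like cells of KPCA.B at 526 CPM. The interval of the ascites dendritic cell-like point, 414 to 579 CPM, includes that value. With Ifitm3 and Bst2 included, this ascites class held 2488 CPM and tumor epithelial-like cells of KPCA.B 2314 CPM.

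Gene by gene, in KPCA.B, 28 of the 33 genes were highest in monocyte-like cells, and in KPCA.C 30 of 33 were. KPCA.A had only 36 monocyte-like cells, too few to be used, and there 17 genes were highest in neutrophil-like and 11 in endothelial-like cells. In ascites, where dendritic cell-like and macrophage-like cells alone were compared, 24 genes were higher in the former. Some of these rested on few UMIs, since the 31 genes together had 144 UMIs in ascites dendritic cell-like cells. How often genes in general are highest in these classes was not counted, so the counts have no background share. The clusters were built without the 33 genes. The cluster called monocyte-like was led by Ms4a4c, Gpr141, Plac8, Ly6c2 and Lyz2, and Ifi27l2a itself stood among its 10 leading genes.

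**Figure D2:**
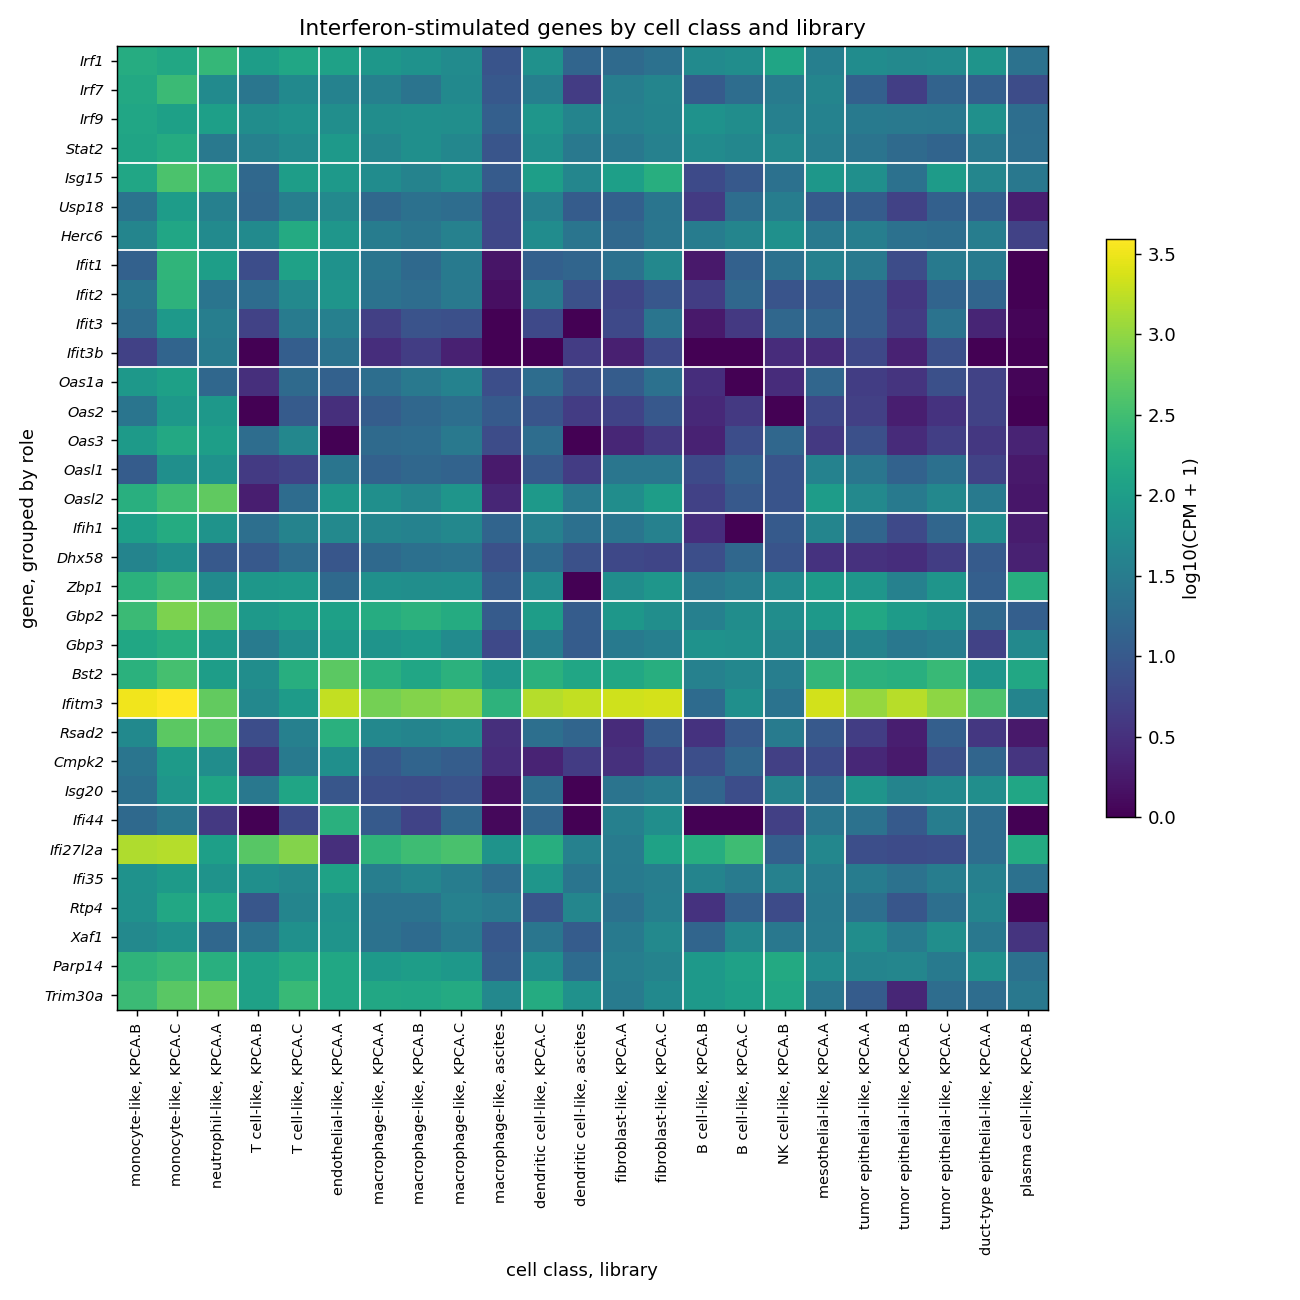
Level of each of the 33 genes (rows, grouped by role) in each of 23 pairs of class and library (columns), as log10(CPM + 1) by colour. Ifitm3 is bright in myeloid, stromal and epithelial columns and dark in lymphoid ones, and the ascites macrophage-like column is darker than the 3 tumor macrophage-like columns beside it for nearly every gene.

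Some genes followed cell type more than the rest of the set. Over the 23 pairs, each gene's log level was correlated with each other gene's, as a description only, since pairs of 1 library share their preparation and depth. Rsad2 had the highest median Pearson correlation with the other genes, 0.68, and the closest pair was Irf1 and Parp14 at 0.92, followed by Usp18 with Ifit2 and Oas1a with Ifih1, both at 0.89. Isg20, an RNA exonuclease, had the lowest median, 0.21. Its highest levels were 131 CPM in both plasma cell-like cells of KPCA.B and T cell-like cells of KPCA.C, followed by 123 CPM in neutrophil-like cells of KPCA.A. Ifi27l2a, a small interferon-induced protein gene, ranged from 2.00 CPM in endothelial-like cells of KPCA.A to 1582 CPM in monocyte-like cells of KPCA.C. Its level in tumor epithelial-like cells was 6.20, 5.60 and 6.04 CPM, and in tumor macrophage-like cells 227, 297 and 361 CPM.

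Ifitm3, a membrane protein that blocks fusion of viruses with endosomes, was the most abundant gene of the set. It reached 3256 and 3929 CPM in monocyte-like cells of KPCA.B and KPCA.C, 2129.7 and 2339 CPM in fibroblast-like cells of KPCA.A and KPCA.C, and 1074, 1605 and 960.4 CPM in tumor epithelial-like cells. Lymphoid classes held little, with 17.3 CPM in B cell-like cells of KPCA.B and 22.5 CPM in NK cell-like cells. Bst2, a tether that holds budding virus at the membrane, was highest in endothelial-like cells of KPCA.A at 495 CPM and lowest in NK cell-like cells at 33.8 CPM. Zbp1, a sensor of left-handed nucleic acid that can trigger cell death, was the highest gene of the set in plasma cell-like cells, at 178 CPM. Ifi27l2a, Bst2 and Isg20 followed there at 158, 142 and 131 CPM.

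The first comparison between lines asked how the malignant cells themselves differed. In UMIs of the 31 genes summed over cells, tumor epithelial-like cells of KPCA.B held less than those of the other lines. That order did not hold in averages over cells. It did not hold over all 33 genes either, where the sums were 2178, 2314 and 2060 CPM and KPCA.B was highest. The summed level of the 31 genes was 900.2, 526 and 837 CPM, so that KPCA.B lay 1.71-fold below KPCA.A (1.66 to 1.76) and KPCA.C lay 1.59-fold above KPCA.B (1.55 to 1.63). KPCA.B was below KPCA.A for 31 of the 33 genes, the 2 exceptions being Ifitm3 and Parp14. These cells numbered 864, 395 and 1309, and all 12 of their epithelial markers were detected in each line. Ascites had 14 such cells, which were not used.

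A gene was counted as higher or lower when its log2 ratio, after 1 CPM was added, passed 2-fold, over genes with at least 50 UMIs in both groups together. In KPCA.B against KPCA.A, 15 of 33 genes were lower by that rule and 0 were higher, beside 5.53% of all 12085 genes lower and 6.15% higher. Their median log2 ratio was -0.88, against 0.04 over all genes. In KPCA.C against KPCA.B, 14 of 33 were higher and 0 lower, beside 8.55% and 10.4% of all genes, with a median of 0.76 against -0.10. The 15 lower genes were Irf7, Isg15, Usp18, Ifit1, Ifit2, Ifit3, Ifit3b, Oas2, Oas3, Ifih1, Zbp1, Rsad2, Ifi44, Rtp4 and Trim30a. KPCA.C against KPCA.A gave 3 higher and 1 lower, beside 5.46% and 6.65%, with a median of 0.04 against -0.07. As a mean over cells the median was 0.46 for KPCA.B over KPCA.A and -0.11 for KPCA.C over KPCA.B. With cells thinned to 1000 UMIs these were 0.39, over the 9 genes that still had enough UMIs, and 0.021.

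**Figure D3:**
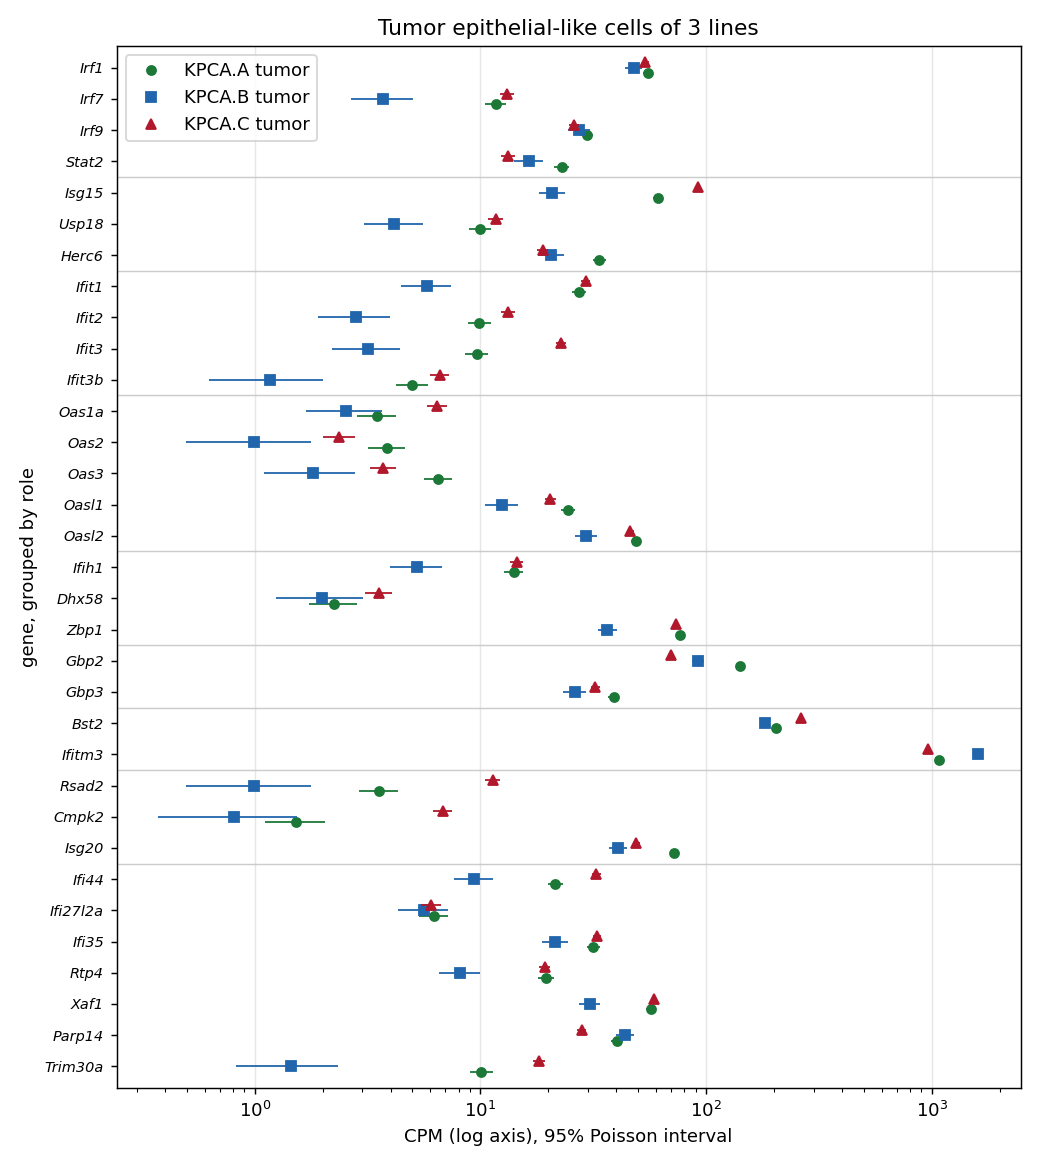
Level of each of the 33 genes in tumor epithelial-like cells of the 3 lines, in CPM on a log axis with 95% Poisson intervals, genes grouped by role. KPCA.B points lie left of the other lines for Irf7, Isg15, the IFIT genes, Rsad2 and Trim30a, and right of them for Ifitm3.

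The transcription factors of the pathway did not move as a block. Irf7, the factor that amplifies type I interferon production and is itself induced by it, stood at 11.7, 3.70 and 13.1 CPM. KPCA.B was 3.17-fold below KPCA.A (2.29 to 4.49). Irf9, the DNA-binding part of the type I complex, was nearly level at 29.6, 27.4 and 26.1 CPM, and Irf1, the factor most tied to interferon gamma, at 55.5, 47.9 and 53.9 CPM. Stat2, which pairs with IRF9, was at 22.9, 16.3 and 13.3 CPM, so KPCA.C was the lowest line for this gene and 1.72-fold below KPCA.A (1.55 to 1.91).

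The ISG15 system followed the summed level. Isg15, a ubiquitin-like protein that is attached to other proteins, was at 61.0, 20.8 and 92.1 CPM, with KPCA.B 2.93-fold below KPCA.A (2.56 to 3.38) and KPCA.C 4.43-fold above KPCA.B (3.88 to 5.08). Usp18, the protease that removes it and also damps the type I receptor, was at 9.97, 4.15 and 11.7 CPM. Herc6, the mouse ligase that attaches it, was at 33.7, 20.6 and 18.9 CPM, so here KPCA.C sided with KPCA.B.

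The IFIT proteins, which bind foreign RNA ends, gave the widest separation by family. Summed over the 4 genes they stood at 51.8, 12.9 and 71.8 CPM. Ifit1 stood at 27.3, 5.78 and 29.3 CPM, 4.72-fold lower in KPCA.B than KPCA.A (3.66 to 6.19). Ifit3 was at 9.66, 3.16 and 22.7 CPM, and Ifit2 at 9.90, 2.80 and 13.2 CPM. The oligoadenylate synthetase family is named for enzymes that make the messenger that activates RNase L. It was lower in KPCA.B as well, with a sum of 87.1, 47.2 and 79.1 CPM over 5 genes. The largest parts were the synthetase-like genes Oasl2 (48.8, 29.4 and 46.1 CPM) and Oasl1 (24.4, 12.5 and 20.4 CPM). Oas2 and Oas3 in KPCA.B were each under 2 CPM.

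Trim30a, a mouse TRIM protein that restrains inflammatory signalling, was at 10.1, 1.44 and 18.2 CPM, which puts KPCA.B 6.99-fold below KPCA.A (4.24 to 12.4). Rsad2, the enzyme viperin that makes a chain-terminating nucleotide, was at 3.56, 0.993 and 11.3 CPM, and its neighbour Cmpk2, a mitochondrial nucleotide kinase, at 1.53, 0.813 and 6.80 CPM. KPCA.C was above KPCA.A for both, for Rsad2 by 3.19-fold (2.59 to 3.95) and for Cmpk2 by 4.46-fold (3.27 to 6.21), and also for Ifit3 by 2.35-fold (2.07 to 2.68). These 3 genes are the ones counted as higher for KPCA.C over KPCA.A, and Gbp2 is the one counted as lower.

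The sensors and GTPases split. Ifih1, the sensor MDA5 of long double-stranded RNA, was lowest in KPCA.B (5.24 CPM), against 14.5 CPM in KPCA.C and a level close to that in KPCA.A, and Zbp1 at 76.7, 36.6 and 73.7 CPM. Gbp2, a guanylate-binding GTPase that attacks the vacuoles of intracellular microbes and responds strongly to interferon gamma, was at 141, 92.3 and 69.8 CPM, so KPCA.C was 2.03-fold below KPCA.A (1.94 to 2.11). Gbp3 was at 39.0, 26.2 and 32.3 CPM. Ifitm3 went the other way from most of the set, 1.49-fold higher in KPCA.B than KPCA.A (1.47 to 1.52), and Bst2 was at 204, 183 and 262 CPM.

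The low level of KPCA.B was found within single clusters of these cells but not in all. In cluster 3, present in all 3 lines, all 31 genes compared were lower in KPCA.B than KPCA.A, with a median log2 ratio of -1.12. In cluster 12 it was 24 of 28, with a median of -0.75. In cluster 3 KPCA.C was also below KPCA.A, with a median of -0.50, while clusters 8 and 15, used for KPCA.C alone, held 905 and 826 CPM. Cluster 7, whose cells have few UMIs (medians of 811, 806.5 and 1106.5), went the opposite way. Its sums were 826, 2395 and 516 CPM. In KPCA.B that rested on 338 UMIs in 120 cells, of which 22.8% came from 1 cell with 1544 UMIs in all.

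Without cluster 7 the median log2 ratio of KPCA.B over KPCA.A in summed UMIs was -0.91. Among cells with at least 5000 UMIs the median cell had 462, 313 and 397 CPM of the 31 genes. Over the 31 genes KPCA.B was thus lowest in summed UMIs and among deep cells, and not in means over all cells. The signal was also uneven, since the richest 10% of thinned cells held 55.4%, 68.0% and 57.6% of the UMIs of the 31 genes.

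**Figure D4:**
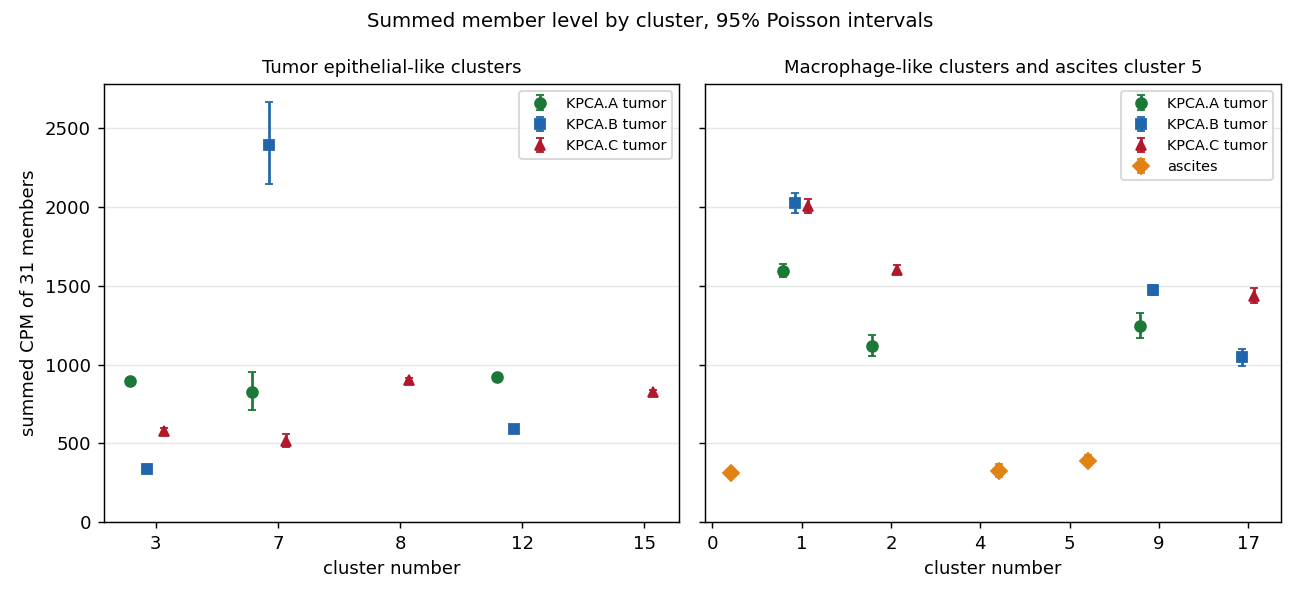
Summed CPM of 31 genes in each tumor epithelial-like cluster (left) and in each macrophage-like cluster and ascites cluster 5 (right), by library, with 95% Poisson intervals. KPCA.B lies below KPCA.A in clusters 3 and 12 and above it in cluster 7, and the 3 ascites clusters lie at 309, 328 and 392 CPM.

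Transcripts of other cell types were present in these cells at levels that differed between lines. The 9 fibroblast markers summed to 619, 283 and 1493 CPM, all 9 being detected in each, and the 6 monocyte markers to 78.8, 101 and 332 CPM, all 6 detected. The 12 macrophage markers summed to 116, 145 and 121 CPM. The 8 endothelial markers summed to 166, 61.0 and 312 CPM, with 1 of them at 0 in KPCA.B, the 8 plasma cell markers to 284, 157 and 294 CPM, with 1, 1 and 2 at 0, and the 8 NK cell markers to 51.4, 40.1 and 157 CPM, with 3, 2 and 1 at 0. The fibroblast, endothelial, plasma cell and NK cell sums were lowest in KPCA.B, as was the summed level of the interferon-stimulated genes. Other sets had other orders. The dendritic cell markers (99.1, 188 and 124 CPM) and mesothelial markers (80.7, 112 and 78.9 CPM) were highest in KPCA.B, as were the macrophage markers. The pancreatic acinar markers (716, 206 and 143 CPM) were lowest in KPCA.C. The part of any of these transcripts in the result was not tested.

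Macrophage-like cells, by contrast, were much alike in the 3 tumors when summed over clusters, and less so within some clusters. Summed levels were 1449 CPM in 811 cells of KPCA.A, 1540.3 CPM in 583 cells of KPCA.B and 1671 CPM in 1064 cells of KPCA.C. Of 32 genes compared, 0 were 2-fold higher or lower in KPCA.B than KPCA.A, beside 4.66% and 4.75% of all genes, and 0 in KPCA.C against KPCA.A, beside 2.17% and 1.4%. In KPCA.C against KPCA.B 2 were higher, Irf7 and Ifi44, beside 5.43% higher and 4.77% lower among all genes. These counts lay near the shares of all genes. Median log2 ratios were 0.06, 0.24 and 0.27 in that order. Within cluster 1 they were 0.07, 0.20 and 0.11. The median was 0.65 in cluster 2 (KPCA.C over KPCA.A), 0.31 in cluster 9 (KPCA.B over KPCA.A) and 0.35 in cluster 17 (KPCA.C over KPCA.B). Medians of all genes in these cluster comparisons lay between -0.10 and 0.03.

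Irf7 was at 35.8, 23.1 and 49.0 CPM, with KPCA.C 2.12-fold above KPCA.B (1.81 to 2.50). Ifi44, an interferon-induced GTP-binding protein gene, was at 9.49, 4.32 and 14.6 CPM. Oas1a was at 19.2, 27.4 and 37.8 CPM, 1.97-fold higher in KPCA.C than KPCA.A (1.60 to 2.45). Irf1 ran in the other direction with 79.3, 66.9 and 52.6 CPM.

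The other main effectors and regulators stayed within 2-fold. Isg15 was at 54.8, 39.7 and 57.4 CPM, Usp18 at 15.2, 21.1 and 18.5, and Ifit3 at 3.76, 7.39 and 6.57. Irf9 was at 56.4, 60.5 and 59.2 CPM and Stat2 at 44.2, 60.2 and 44.7. Ifitm3 was at 697, 832 and 994 CPM and Bst2 at 189, 131 and 201 CPM. Dissociation stress genes, 17 immediate-early and heat shock genes with Junb among them, were listed for comparison. In KPCA.B 10 of the 17 were 2-fold lower than in KPCA.A, beside 4.75% of all genes, with a median log2 ratio of -1.72.

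Within each tumor, macrophage-like cells were above tumor epithelial-like cells for most of the set, 21 of 33, 27 of 32 and 21 of 33 genes. In KPCA.A 12 of 33 genes were 2-fold higher and 5 lower in macrophage-like cells, beside 13.7% higher and 29% lower among all genes. In KPCA.B it was 20 higher and 1 lower of 32, beside 14.7% and 27.5%, and in KPCA.C 13 higher and 5 lower of 33, beside 15% and 28.3%. Median log2 ratios were 0.51, 1.23 and 0.68, against -0.40, -0.36 and -0.37 over all genes. The KPCA.B value was 0.13 as a mean over cells, 0.62 with thinned cells and 1.63 with a marker gate per cell, and the KPCA.C value was 1.06 with the gate and 0.37 with thinned cells.

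Ifi27l2a had macrophage-like over epithelial-like ratios of 36.5, 53.1 and 59.7, the highest in KPCA.A and KPCA.C. Trim30a had 14.3, 91.9 and 8.55, the highest in KPCA.B. The ratios of Rsad2 were 13.1, 41.5 and 4.18. Oas1a, with ratios of 5.49, 10.8 and 5.88, and Dhx58, the regulator LGP2 of the RNA sensors, with 7.20, 10.3 and 6.32, were also higher in macrophage-like cells of all 3 tumors. The very high ratios of KPCA.B came with epithelial levels of 1.44 CPM for Trim30a and 0.993 CPM for Rsad2.

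A smaller group ran the other way. Isg20 was at 72.2, 40.6 and 49.0 CPM in tumor epithelial-like cells and at 6.27, 5.80 and 7.31 CPM in macrophage-like ones. Xaf1, a pro-apoptotic partner of XIAP, was at 57.0, 30.5 and 58.9 CPM in the former and at 21.3, 16.9 and 28.3 CPM in the latter, and Ifi44 was lower in macrophage-like cells of all 3 tumors. Isg15 was near parity in KPCA.A, with a ratio of 0.90 (0.79 to 1.02), above it in KPCA.B at 1.91 and below it in KPCA.C at 0.62. Ifit3 was lower in macrophage-like cells except in KPCA.B, where it was 2.34-fold higher (1.53 to 3.63).

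Macrophage-like cells of ascites differed from those of the tumors across most of the set. The 2005 macrophage-like cells of ascites held 312 CPM of the 31 genes (297 to 328), which is 4.64-fold, 4.93-fold and 5.35-fold below the tumors. Against KPCA.A 27 of 30 genes were 2-fold lower and 0 higher, beside 41.2% of all genes lower and 8.88% higher. Against KPCA.B it was 27 of 31 and 0, beside 42.3% and 7.75%, and against KPCA.C 29 of 32 and 0, beside 39.4% and 7.05%. Set against all 3 tumors at once, 24 of the 29 genes compared in each were at least 2-fold lower in ascites and 0 were higher, beside 31.1% of all genes lower and 5.51% higher. The median log2 ratios were -2.09, -2.16 and -2.40, where the median of all genes was itself -0.76, -0.79 and -0.74. The 3 comparisons share the ascites library and are not independent of each other. The ascites cells were shallower, with a median of 2043 UMIs against 5972, 13244 and 10692.5, and were read with another annotation. They also held 1576 CPM of the 9 neutrophil markers, all detected, against 153, 44.4 and 118 CPM in the tumors, and 3368 CPM of the 12 macrophage markers, all detected, against 18097, 17047 and 15493 CPM. Their 6 monocyte markers, all detected, summed to 26215.5 CPM, above their macrophage markers, against 4681, 16585 and 16816 CPM in the tumors. The marker score used for naming clusters was 0.172 and 0.14 for macrophage in ascites clusters 0 and 4. In cluster 0 monocyte came second at 0.114. The macrophage score was 0.506, 0.639, 0.705 and 0.313 in tumor clusters 1, 2, 9 and 17. A marker gate per cell kept 10 of the 2005 ascites cells, against 236, 214 and 384 cells in the tumors. The 2 groups shared no macrophage-like cluster. Ascites clusters 0 and 4 held 0 tumor cells, and tumor clusters 1, 2, 9 and 17 held 0 ascites cells. The ratios thus compare cells that were clustered apart, and whether they are the same cell type was not tested. The part of depth, annotation or these markers in the result was not tested.

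The IFIT genes were among the lowest in ascites, together with Ifi44 (1 UMI) and Isg20 (2 UMIs). Ifit3 had 0 UMIs in the 2005 cells, which allows up to 0.606 CPM (3 counts over the group), against 3.76, 7.39 and 6.57 CPM in the tumors, so it was at least 6.21-fold, 12.2-fold and 10.8-fold lower. Ifit1 had 3 UMIs, 0.606 CPM, against 23.6, 15.8 and 28.8 CPM in the tumors, which is 47.5-fold lower than KPCA.C with a wide counting interval (16.1 to 231). Ifit2 had 2 UMIs against 27.0 CPM in KPCA.C, 66.9-fold lower (18.4 to 554). Ifit3b also had 0 UMIs, and was at least 3.25-fold, 5.81-fold and 1.83-fold lower. All 4 IFIT genes together had 5 UMIs in ascites macrophage-like cells.

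Effectors of other families were lower as well. Oasl2, an oligoadenylate synthetase-like protein, was at 60.0, 44.0 and 72.7 CPM in the tumors and 1.41 CPM in ascites, 51.4-fold below KPCA.C (24.9 to 128). Gbp2 was at 167, 201 and 163 CPM in the tumors and 9.90 CPM in ascites, 16.8-fold below KPCA.A (12.6 to 22.9). Rsad2 stood at 46.7, 41.2 and 47.5 CPM against 2.02 CPM. Ifitm3 was at 208 CPM in ascites, 3.35-fold below KPCA.A (3.13 to 3.59), and Ifi27l2a at 68.3 CPM, 3.32-fold below KPCA.A (2.94 to 3.75).

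The regulators were also low in ascites. Irf1 was at 7.47 CPM, 10.6-fold below KPCA.A (7.58 to 15.3) and 7.04-fold below KPCA.C (5.06 to 10.1). Irf7, Irf9 and Stat2 were at 8.68, 11.1 and 7.88 CPM, which is 4.12-fold, 5.08-fold and 5.62-fold below KPCA.A. Isg15 was at 9.90 CPM, 5.54-fold below KPCA.A (4.09 to 7.65), and Usp18 at 5.05 CPM, 3.02-fold below it (1.91 to 4.92).

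Not every gene followed. Rtp4, a chaperone-like interferon-induced protein gene, was at 30.1 CPM in ascites against 22.4, 22.7 and 37.5 CPM, inside the range of the tumors. Oas2 was at 9.29 CPM, 1.12-fold, 1.61-fold and 2.06-fold below the tumors. Bst2, at 76.5 CPM, was 2.47-fold below KPCA.A but 1.71-fold below KPCA.B, and Ifi35 and Xaf1 also missed the 2-fold limit in at least 1 of the 3 comparisons.

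**Figure D5:**
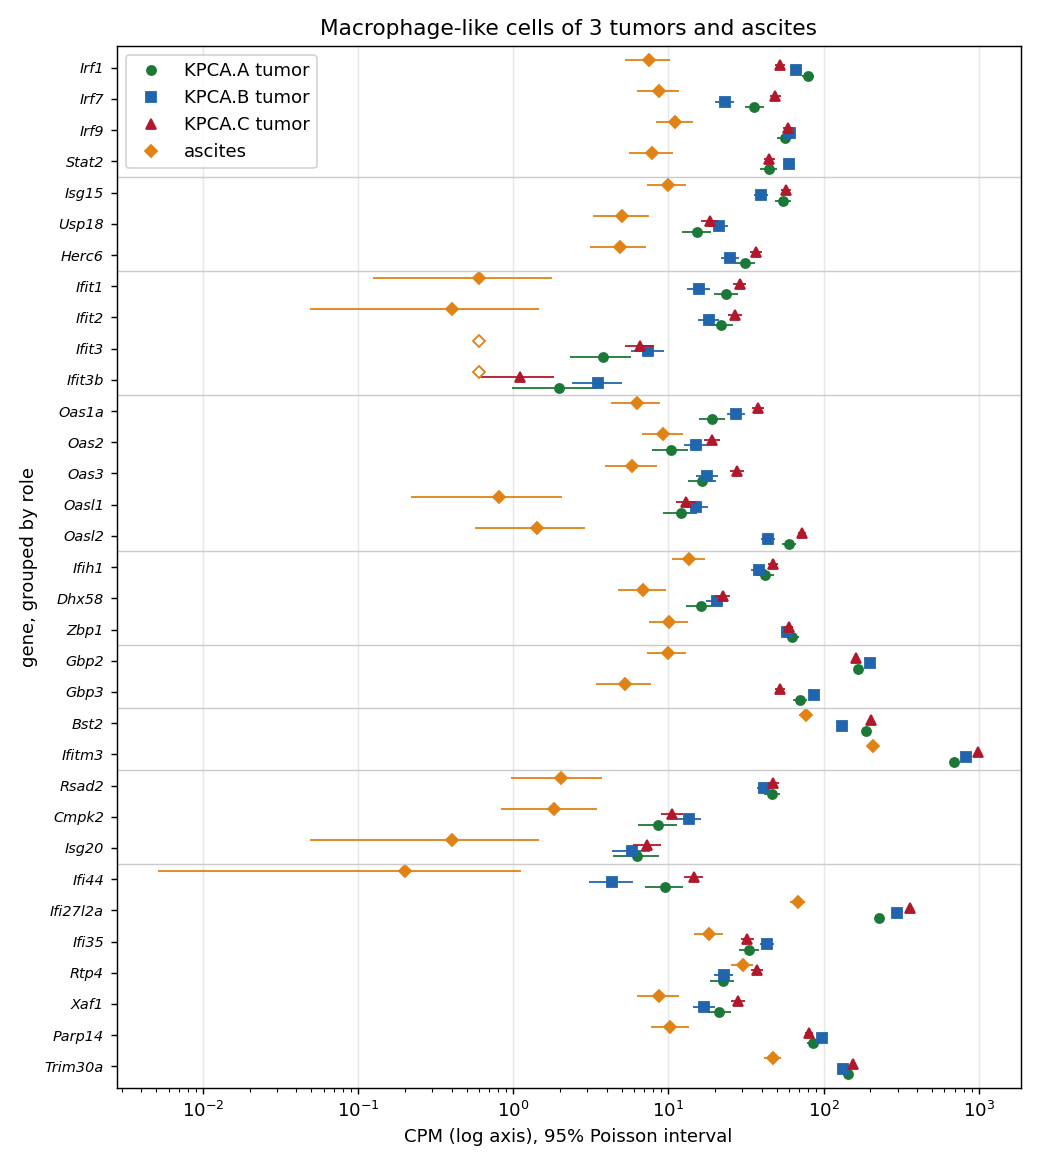
Level of each of the 33 genes in macrophage-like cells of the 3 tumors and of ascites, in CPM on a log axis with 95% Poisson intervals; open diamonds mark the limit of 0.606 CPM that 0 UMIs allow. Ascites points lie left of all tumor points for every gene except Rtp4.

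The low level was found in each group of ascites cells examined. Ascites cluster 0 held 309 CPM and cluster 4 held 328 CPM of the 31 genes, and cluster 5, 700 cells left unnamed and led by Ppbp, Pf4, Csta2 and Cxcl3, held 392 CPM. Among cells with at least 5000 UMIs, the median ascites cell held 193 CPM against 929.5, 1097 and 1066 CPM in the tumors. Thinned to 1000 UMIs, 25.3% of 1465 ascites cells had at least 1 UMI of the 31 genes, against 62.5%, 65.8% and 65.6% of the tumor cells. No class is known to lack these genes, so no background share can be given. Tumor cluster 17 held 1046 CPM (KPCA.B) and 1436 CPM (KPCA.C), the lowest macrophage-like cluster of either tumor. Among the 10 leading genes of each cluster, it shared only Cd5l with ascites cluster 0 and none with ascites clusters 4 and 5.

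Dendritic cell-like cells went the same way, with far fewer cells. The sum was 1425 CPM in 53 cells of KPCA.C and 491 CPM in 108 cells of ascites, 2.90-fold lower in ascites (2.43 to 3.47). Of 12 genes compared 9 were 2-fold lower and 0 higher, beside 39.9% of all genes lower and 8.29% higher, and the median log2 ratio was -1.47 where that of all genes was -0.71. Gbp2 had the largest drop, from 98.5 to 10.2 CPM, and Ifi27l2a went from 176 to 37.5 CPM. Irf1 went from 64.3 to 13.6 CPM and Irf9 from 77.5 to 40.9 CPM. Isg15 was at 104 CPM in the tumor and 44.4 CPM in ascites, and Bst2 at 194 and 133 CPM. Ifitm3 was at 1574 CPM in the tumor and 1863 CPM in ascites. The ascites cells of this class also carried 1716 CPM of the 9 neutrophil markers, 7 of which were detected, against 319 CPM in KPCA.C. The 6 monocyte markers summed to 1938 CPM against 494 CPM, and the 12 macrophage markers to 969 CPM against 587 CPM. All 3 sums were above the 508 CPM of their 8 dendritic cell markers, which stood at 1673 CPM in KPCA.C. The part of these markers in the result was not tested.

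The lymphoid and monocyte classes allowed KPCA.C to be set against KPCA.B. In monocyte-like cells 12 of 30 genes were 2-fold higher in KPCA.C and 0 lower, beside 5.73% and 3.18% of all genes, with a median log2 ratio of 0.71 against -0.06. In T cell-like cells, 159 in KPCA.C and 201 in KPCA.B, 10 of 21 were higher and 0 lower, beside 3.09% and 2.36%, with a median of 0.98 against -0.01. B cell-like cells, 69 and 584, gave a median of 0.32 over 14 genes.

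Ifit1 had the largest ratio in both classes. It went from 12.1 CPM in monocyte-like cells of KPCA.B to 225 CPM in those of KPCA.C, an 18.6-fold difference (8.30 to 51.5), and from 6.13 to 114 CPM in T cell-like cells, 18.7-fold (8.29 to 52.0). Isg15 went from 131 to 375 CPM in monocyte-like cells and from 15.3 to 99.1 CPM in T cell-like cells. Rsad2 in monocyte-like cells went from 50.4 to 489.6 CPM (9.71-fold, 6.45 to 15.3). The type I regulator Irf7 went from 147 to 279 CPM and Stat2 from 125 to 162 CPM in monocyte-like cells. Usp18 went from 22.2 to 96.2 CPM, Ifit3 from 18.2 to 87.8 CPM and Bst2 from 196 to 341 CPM there, whereas Ifi27l2a, at 1452 and 1582 CPM, was nearly level. Irf1 and Irf9 ran slightly the other way, with 165 and 133 CPM in monocyte-like cells of KPCA.B and 142 and 108 CPM in those of KPCA.C.

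In T cell-like cells Isg20 went from 26.6 CPM for KPCA.B to 131 CPM for KPCA.C, Herc6 from 52.1 to 157 CPM, Bst2 from 56.2 to 181 CPM and Ifi27l2a from 456 to 850.3 CPM. Ifit3 (4.08 and 30.5 CPM) and Usp18 (14.3 and 33.7 CPM) had too few UMIs to be counted. Irf7 went from 24.5 to 50.1 CPM and Ifitm3 from 47.0 to 92.5 CPM. The regulators Irf1 (100.1 and 132 CPM), Irf9 (57.2 and 66.4 CPM) and Stat2 (36.8 and 53.3 CPM) differed by less than 2-fold.

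Sums and typical cells differed here. The median monocyte-like cell held 3764 CPM of the 31 genes in KPCA.B and 4042 CPM in KPCA.C, a smaller gap than that between the sums of 4226 and 7276 CPM. In KPCA.C 9.49% of the UMIs came from 1 cell. For T cell-like cells the medians were 1155 CPM (KPCA.B) and 1486 CPM (KPCA.C), against sums of 1388 and 2832 CPM. The 6 monocyte markers summed to 585 CPM in T cell-like cells of KPCA.B, with 4 of the 6 detected, and 1053 CPM in those of KPCA.C, with all 6 detected, and their part in the result was not tested.

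Fibroblast-like cells were compared between KPCA.C, with 101 cells, and KPCA.A, with 138. The sum was 1241 CPM in KPCA.C and 802 CPM in KPCA.A. Of 26 genes 3 were 2-fold higher in KPCA.C and 0 lower, beside 1.25% and 1.02% of all genes, and 25 of the 26 had a ratio above 1. Ifit3 went from 5.30 to 24.3 CPM (4.59-fold, 2.65 to 8.49), Ifi27l2a from 30.4 to 116 CPM (3.80-fold, 3.02 to 4.84) and Ifit1 from 21.2 to 46.2 CPM. Isg15, abundant in this class, went from 104 to 176 CPM. The regulators lay closer together, with Irf7 at 33.9 and 42.4 CPM, Irf9 at 36.1 and 40.5 CPM, Stat2 at 26.5 and 36.8 CPM and Irf1 at 16.3 and 20.7 CPM. Usp18 went from 11.7 to 23.6 CPM and Bst2 from 142 to 177 CPM. Gbp2 was the 1 gene of the 26 that was lower in KPCA.C, at 58.3 against 78.1 CPM.

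The interferons themselves were hardly seen. Over 19 type I and type III ligand genes the used cells held 6, 4 and 13 UMIs in the tumors and 0 in ascites. They were UMIs of Ifne, the epithelial interferon epsilon of the reproductive tract, and of Ifnz, Ifnk and Ifnab, and Ifnb1 had 0 in every library. Ifng was detected in lymphoid cells, with 18, 83 and 37 UMIs in the tumors. It was not detected at this depth in ascites, where 0 of the cells used were T cell-like or NK cell-like. Of the tumor UMIs of Ifng, 15 and 27 lay in T cell-like cells of KPCA.A and KPCA.C and 46 in NK cell-like cells of KPCA.B.

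In tumor epithelial-like cells 0 of the 5 or 6 receptor genes compared passed 2-fold in any of the 3 comparisons of lines, and neither did any of the 5 kinases and STATs, where 5.46% to 8.55% of all genes were higher and 5.53% to 10.4% lower. Ifnar2, a chain of the type I receptor, was at 57.8, 69.5 and 56.8 CPM. In ascites macrophage-like cells 2 of 5 receptors were 2-fold lower against each tumor, as were 3, 4 and 3 of the 5 kinases and STATs, beside 41.2%, 42.3% and 39.4% of all genes, so the receptor share was near that of all genes. Of 15 genes of nucleic acid sensing, led in epithelial-like cells by Tmem173, which encodes STING, 9, 10 and 10 of the 13 compared were lower in ascites, and of 5 feedback inhibitors 3 were lower against each tumor.

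Other interferon-responsive genes outside the set were compared in the same way. Of 43 further type I responsive genes 40 were found, and in tumor epithelial-like cells 5 of 32 were 2-fold lower and 0 higher in KPCA.B than KPCA.A, with a median log2 ratio of -0.22, beside 5.53% lower and 6.15% higher among all genes. Ly6e, the most abundant of them, was at 575.5, 485 and 836 CPM. Of 30 genes weighted to interferon gamma 29 were found, and there 2 of 27 were higher and 1 lower in that comparison, with a median of 0.18. In KPCA.C against KPCA.B the first list had 8 higher and 1 lower of 37 and the second 1 higher and 6 lower of 28, beside 8.55% higher and 10.4% lower among all genes. The immunoproteasome gene Psmb8 stood at 272, 217 and 165 CPM, the same order as Gbp2 and Stat2.

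In ascites macrophage-like cells against KPCA.A, 31 of 38 type I responsive genes and 24 of 25 gamma weighted genes were 2-fold lower, beside 41.2% of all genes, and the median log2 ratios were -1.78 and -2.89, where that of all genes was -0.76. Cxcl9, a T cell attractant that responds to interferon gamma, was at 295, 301 and 151 CPM in tumor macrophage-like cells and 0.202 CPM in ascites, which is 1 UMI. Of the 17 dissociation stress genes 14, 8 and 15 were 2-fold below the tumors, beside the same 41.2%, 42.3% and 39.4%, and the labels describe digestion for the tumors only. The part of that step in the result was not tested.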

How the data were processed

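The authors deposited 1 matrix of raw UMI counts per library, with its gene and barcode tables. Per the file headers, the tumor libraries were made with Cell Ranger 4.0.0 and the ascites library with 3.0.2. The submitters' processing notes name Cell Ranger 3.1.0 and build mm10. Each library lists its own genes, 32285 for the tumors and 31053 for ascites, and 30406 shared identifiers were used.

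Barcodes needed 300 genes, 500 UMIs and no more than 15% mitochondrial UMIs. Putative doublets were removed as the highest Scrublet scores, at 0.8% per 1000 barcodes (121, 69 and 102 tumor cells and 73 ascites cells). The members and other interferon genes were left out of the 2000 variable genes. Clustering used 30 principal components, 15 neighbours and Leiden resolution 1 with seed 1, and gave 35 clusters, of which 5 stayed unnamed. UMIs were summed per class and library. Log2 ratios used 1 CPM added and genes with at least 50 UMIs over both groups, and a difference of at least 2-fold was counted. Intervals are Poisson, exact conditional or Clopper-Pearson. Since each group had 1 library, no test was made. Reads are UMI-counted, and nothing was estimated of variation between animals.

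The members and lists were chosen with earlier results of these data known. Naming thresholds, splitting of mixed clusters, leaving Ifitm3 and Bst2 out of sums, the limit of 5000 UMIs for a deep cell and the alternatives by cluster were set after seeing the data. Genes named in each comparison were Isg15, Usp18, Irf7, Irf9, Stat2, Ifit3, Ifitm3, Bst2, Ifi27l2a, Irf1 and the 5 largest ratios in each direction, and other members named for their role were picked after their values were seen. Genes outside the set are given as counts per list, with the most abundant as examples. Alternatives were other values of the CPM added, cell filter, UMI minimum and resolution, doublets kept, members kept among the variable genes, a marker gate (at least 3 own marker UMIs and 80% of marker UMIs), means over cells, thinning to 1000 UMIs, median-of-ratios scaling and single clusters. In simulated counts for tumor epithelial-like cells of KPCA.A and KPCA.B over 12092 genes, 95.2% of 189 genes changed 3-fold were counted, 0% of unchanged genes were, and 95.8% of intervals held the true fold. These shares concern counting error alone. They do not show how the rule or the intervals hold under the spread between cells or samples.

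Software was scanpy 1.11.5 in python 3.11.15, scipy 1.17.1, numpy 2.4.6, pandas 2.3.3, scikit-learn 1.9.0, leidenalg 0.10.2 and matplotlib 3.10.9. Promoter windows came from RefSeq on GRCm38.p6.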

Additional observations from a re-analysis of the deposited data

How the results depend on the processing

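Values are median log2 ratios of the interferon-stimulated genes. Of 158 values under the alternatives for the epithelial-like, macrophage-like and fibroblast-like comparisons, 146 kept their sign and 12 changed it, and 130 stayed near the reported value, within its typical counting interval for 1 gene. The cause was not tested. Alternatives by cluster were chosen after seeing the data.

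In tumor epithelial-like cells, KPCA.B over KPCA.A (-0.88) became 0.46 as a mean over cells and 0.39 with cells thinned to 1000 UMIs. KPCA.C over KPCA.A (0.04) became -0.11 at Leiden resolution 2, -0.30 with a marker gate per cell, 0.19 as a mean over cells, 0.22 thinned, -0.50 in cluster 3 only and -0.17 in cluster 7 only. KPCA.C over KPCA.B (0.76) became -0.11 as a mean over cells, 0.021 thinned and -1.74 in cluster 7 only.

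In macrophage-like cells, KPCA.B over KPCA.A (0.06) became -0.019 with the stricter cell filter and -0.081 both as a mean over cells and thinned. The marker gate gave 0.50 for it and -0.076 for KPCA.C over KPCA.B (0.27). Ascites over KPCA.A (-2.09) became -1.55 with median-of-ratios scaling, -2.99 thinned and -1.55 with ascites cluster 5. Ascites over KPCA.B (-2.16) became -1.58 with 5 CPM added and -1.44 with tumor cluster 17 only, which gave -1.88 against KPCA.C (-2.40). The gate left 10 ascites macrophage-like cells and gave no value there.

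For macrophage-like over tumor epithelial-like cells, KPCA.B (1.23) became 1.63 with the gate, 0.13 as a mean over cells and 0.62 thinned. KPCA.C (0.68) became 0.94 with doublets kept, 0.92 at resolution 2, 0.94 with the members kept among the variable genes, 1.06 with the gate, 0.89 with median-of-ratios scaling and 0.37 thinned.

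Depth limits genes with few UMIs, above all the IFIT genes in ascites. No paired analysis was possible because each group had 1 library.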
